A study of Homo sapiens with 5 samples.

Results

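The mitosis and kinetochore gene set comprised 50 of the 20098 protein-coding genes on chromosomes 1 to 22 and X. Its members were listed by name, for the function of their products. They fell into 9 roles: 10 kinases, phosphatases and cyclins of mitotic entry, 11 centromere and kinetochore proteins, 7 motors and spindle proteins, 6 condensin subunits or topoisomerases, 6 spindle checkpoint proteins, 4 subunits of the chromosomal passenger complex, 2 cytokinesis proteins, 2 proteins of sister chromatid release and 2 transcription factors. The remaining 20048 protein-coding genes were described in the same way beside them.

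The study mapped transcription factor binding by ChIP-seq in MDA-MB-231 LM2 cells, which the labels give as untreated, lung-metastatic breast cancer cells derived from MDA-MB-231. Chromatin was precipitated in separate samples with antibodies to Fra-1, MYC and E2F1, and the peaks of each factor were called against the input DNA of these cells. There was 1 library for each factor, so no spread between replicates could be given and no difference between factors was tested. After filtering, the E2F1 library held 18056168 tags, the MYC library 23853621, the Fra-1 library 12931227 and the shared input 10758036, and the 3 lists held 36933, 4867 and 17320 peaks respectively. An EZH2 library is also labelled and was not analysed here.

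Mitotic genes are transcribed in waves, with most transcripts rising in G2. Their promoters are known for a CHR, a short element bound by the MuvB complex, which represses them as part of DREAM in quiescent cells and activates them together with B-MYB and FOXM1 in G2, often beside CCAAT boxes bound by NF-Y. E2F factors are best known for activating the genes of DNA replication in late G1, MYC binds E-boxes, and Fra-1 is an AP-1 subunit that binds TGACTCA and related sites.

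The windows below show these elements in promoters or under peaks of the members. All sequences are given 5′ to 3′ on the strand of the gene, in GRCh37 (hg19) coordinates, with the element in capitals. The first 2 windows lie around the strongest E2F1 summit of genes whose CHR (TTTGAA or TTCGAA, either strand) fell beside it. AURKB carries in addition the GCGG of a CDE, placed 4 bases before the CHR, and PLK1 has a CHR without that partner.
AURKB, chr17:8113883-8113983, minus strand: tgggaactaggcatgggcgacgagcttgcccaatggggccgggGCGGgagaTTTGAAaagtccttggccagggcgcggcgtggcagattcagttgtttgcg
PLK1, chr16:23690107-23690207, plus strand: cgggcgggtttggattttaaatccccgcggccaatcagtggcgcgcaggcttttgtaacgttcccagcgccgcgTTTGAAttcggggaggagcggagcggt

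The next windows, of 30 bases, hold the CHR of 6 further promoters. In BUB1, CDC25C, CENPF and NUF2 it stands in a CDE/CHR pair, GCGG and 4 bases before the CHR. It lay near the strongest E2F1 summit in BIRC5 (1 bp upstream), NUF2 (9 bp upstream), KIF23 (14 bp upstream) and CENPF (20 bp downstream), but 207 bp downstream of it in BUB1 and 6467 bp in CDC25C.
BUB1, chr2:111435622-111435651, minus strand: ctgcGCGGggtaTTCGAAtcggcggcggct
CDC25C, chr5:137667506-137667535, minus strand: gctgGCGGaaggTTTGAAtggtcaacgcct
CENPF, chr1:214776566-214776595, plus strand: ggctGCGGgcagTTTGAAttagactctggg
NUF2, chr1:163291748-163291777, plus strand: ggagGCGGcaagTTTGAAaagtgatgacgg
BIRC5, chr17:76210345-76210374, plus strand: ttaaccgccagaTTTGAAtcgcgggacccg
KIF23, chr15:69706621-69706650, plus strand: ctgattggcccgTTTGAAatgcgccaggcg

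The 3 members with an E2F motif in the promoter are shown because they were the exception in the set. The motif (TTTCCCGC, TTTCGCGC, TTTGCCGC or TTTGGCGC, either strand) lay 18 bp from the E2F1 summit in CDC25A, 27 bp in CENPH and 7 bp in CENPA.
CDC25A, chr3:48229880-48229980, minus strand: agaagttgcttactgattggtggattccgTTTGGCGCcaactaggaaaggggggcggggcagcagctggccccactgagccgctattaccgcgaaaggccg
CENPH, chr5:68485322-68485422, plus strand: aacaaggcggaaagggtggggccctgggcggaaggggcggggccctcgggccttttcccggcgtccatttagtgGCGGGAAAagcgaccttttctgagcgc
CENPA, chr2:27008638-27008738, plus strand: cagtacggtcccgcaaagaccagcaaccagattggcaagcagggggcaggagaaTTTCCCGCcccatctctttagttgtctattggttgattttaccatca

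The last 3 windows show members with the factor's own motif under a peak of MYC or Fra-1. An E-box (CACGTG) lay 7 bp from the MYC summit in CENPF and in CENPM, and an AP-1 motif (TGACTCA or TGAGTCA) lay 1 bp from the Fra-1 summit in intron 1 of MYBL2.
CENPF, chr1:214776304-214776404, plus strand: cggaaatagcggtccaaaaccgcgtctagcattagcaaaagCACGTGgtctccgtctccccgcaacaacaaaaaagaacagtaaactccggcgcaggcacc
CENPM, chr22:42342347-42342447, minus strand: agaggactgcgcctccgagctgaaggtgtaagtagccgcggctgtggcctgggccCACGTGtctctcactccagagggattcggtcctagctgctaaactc
MYBL2, chr20:42298100-42298200, plus strand: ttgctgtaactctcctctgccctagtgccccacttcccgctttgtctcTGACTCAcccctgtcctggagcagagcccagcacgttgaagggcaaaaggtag

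The first comparison asked at which of these genes each factor had a peak. A gene counted as bound when a peak overlapped, by at least 1 bp, the window from 2 kb upstream to 2.5 kb downstream of any of its annotated transcription start sites (TSS). All 50 members had an E2F1 peak in their windows, beside 12271 of the 20048 other protein-coding genes (61.2%). A MYC peak was found at 17 members (34.0%), beside 17.8% of the other genes, and a Fra-1 peak at 5 members (10.0%), beside 13.3%. Only AURKA, BIRC5 and PRC1 had peaks of all 3 factors (6.0%, beside 4.67% of the other genes).

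By combination, 31 members (62.0%) had E2F1 alone, beside 35.8% of the other genes. E2F1 with MYC was found at 14 members (28.0%, beside 13.1%). E2F1 with Fra-1 was found at 2, ESPL1 and MYBL2 (4.0%, beside 7.68%). Of the 12271 other genes with an E2F1 peak, 7171 had E2F1 alone. Since most other genes also had an E2F1 peak, the count of members with one separates them little from the rest. When each list was reduced to its 4857 peaks of lowest q-value, which is the length of the MYC list on these chromosomes, 45 of the 50 members kept an E2F1 peak, beside 25.5% of the other genes. A member without a peak had no summit that passed the caller's q-value threshold of 0.01, which does not show that the factor was absent.

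The next question was how strong the E2F1 peaks of the members were. Strength is given as the fold enrichment at the summit, the scaled number of ChIP fragments over the local background from the input, with 1 added to each, and the strongest peak of a gene was used. The median of the 50 members was 36.0, with the middle 50% between 26.1 and 49.0, and that of the other genes with a peak was 21.98 (13.3 to 32.4), so that the medians differed 1.64-fold. Of the members, 44 lay above the median of the other genes, 28 lay in their top 25%, 19 in their top 10% and 0 in their bottom 25%. The peaks of the members had a median length of 1086.5 bp, beside 614 bp.

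**Figure D1:**
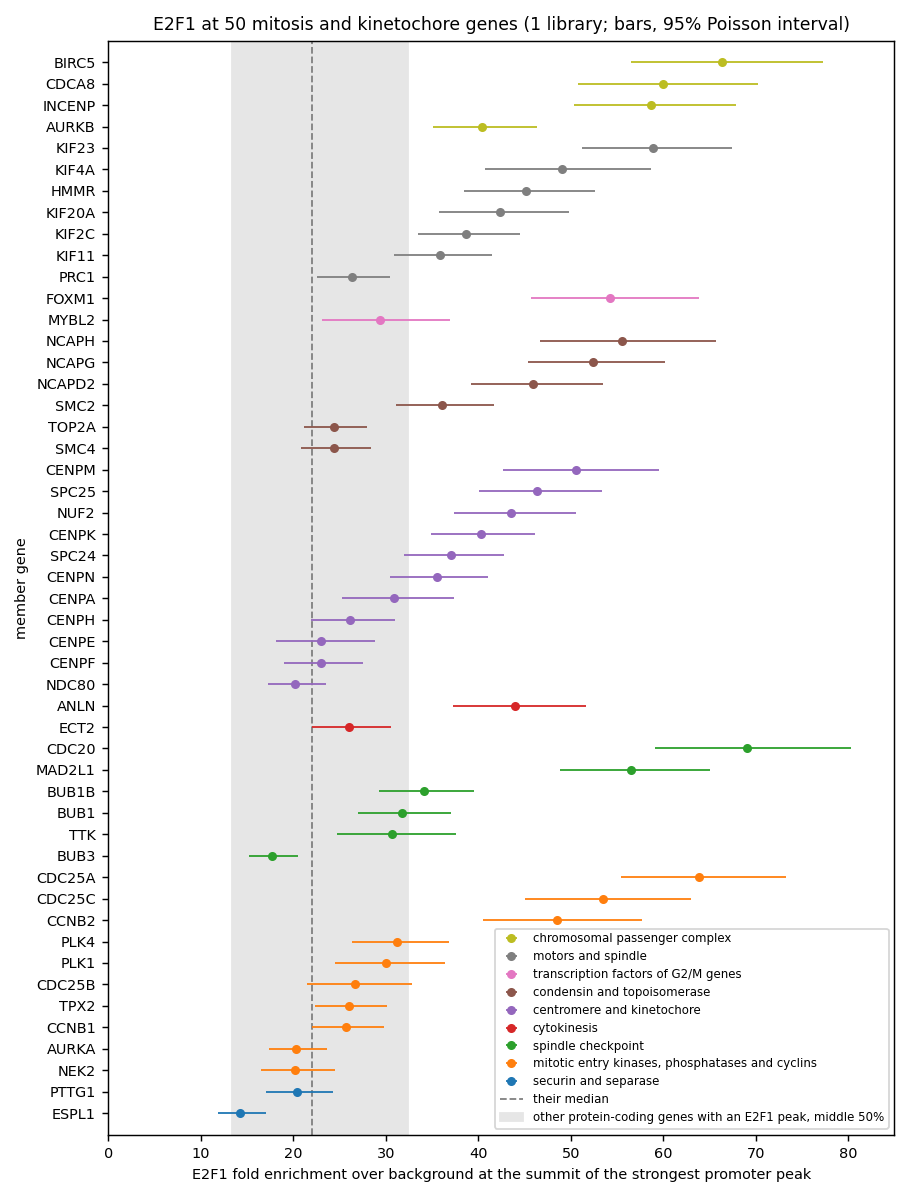
E2F1 fold enrichment (x axis) at the strongest promoter peak of each of the 50 members (y axis), coloured by role and ordered by the median of the role. Bars are 95% Poisson intervals of the fragment count in 1 library, and the grey band and dashed line give the middle 50% (13.3 to 32.4) and the median (21.98) of the other protein-coding genes with a peak. Members range from 14.3 at ESPL1 to 69.1 at CDC20, and the passenger complex stands highest by its median enrichment, though not by fragments.

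CDC20, which activates the anaphase-promoting complex, had the highest value, 69.1 (95% Poisson interval 59.1 to 80.3, from 167 fragments), at chr1:43823786-43826600 with the summit in the first exon. It was followed by BIRC5 (survivin, which brings the passenger complex to the centromere) at 66.3 (56.5 to 77.3). CDC25A, a phosphatase that activates CDKs in G1 and at mitotic entry, reached 63.9 (55.5 to 73.2). CDCA8 (borealin of the passenger complex) had 59.9 (50.8 to 70.3) and KIF23, a kinesin of the central spindle, 58.9 (51.2 to 67.5). These 5 intervals overlap each other, so that the order among them is not resolved by counting error.

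At the other end stood ESPL1 (separase, which cleaves cohesin), with 14.3 (11.8 to 17.0). BUB3, a checkpoint protein that loads its partners onto kinetochores, had 17.7 (15.2 to 20.5). The kinase NEK2, which splits the centrosomes, had 20.2 (16.5 to 24.5), NDC80, which couples kinetochores to microtubules, had 20.2 (17.3 to 23.5), and the mitotic kinase AURKA had 20.3 (17.4 to 23.6). All 5 lay below the median of the other genes, and none of their intervals reached those of the 5 highest members. The intervals hold the local background fixed, so they leave out its counting error.

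Fold enrichment and fragment number ordered the members differently. The 5 members of lowest enrichment had 100 to 177 fragments over the summit, within reach of the 148 to 205 of the 5 highest, but their local background was 2.0 to 5.0 scaled fragments, against 0.452 to 1.09. Across the 50 members, fold enrichment had a rank correlation of -0.73 with the background and of 0.29 with the fragments, a description within 1 library that shares the background term. BUB3 is the clearest case, with 177 fragments, more than CDC20, over a background of 5.0. Whether copy number or another feature of the input sets the background at these loci was not tested.

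By fragments, the members stood further from the other genes than by fold enrichment. The median was 161 fragments (70 to 205), beside 78 for the other genes with a peak, a 2.06-fold difference, and 48 members lay above the median and 42 in the top 25% of the other genes. Because the caller kept 1 tag per position and strand and extended each to 113 bp, at most 226 fragments could cover 1 base in the E2F1 library. Among the members, 43 (86.0%) exceeded 50% of this ceiling, beside 27.0% of the other genes with a peak, and 20 (40.0%) exceeded 75% of it, beside 5.47%. KIF23 came closest, with 205 fragments or 90.7% of the ceiling. Counts without the filter on duplicate tags were not available, so whether it compressed the highest summits was not tested.

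**Figure D2:**
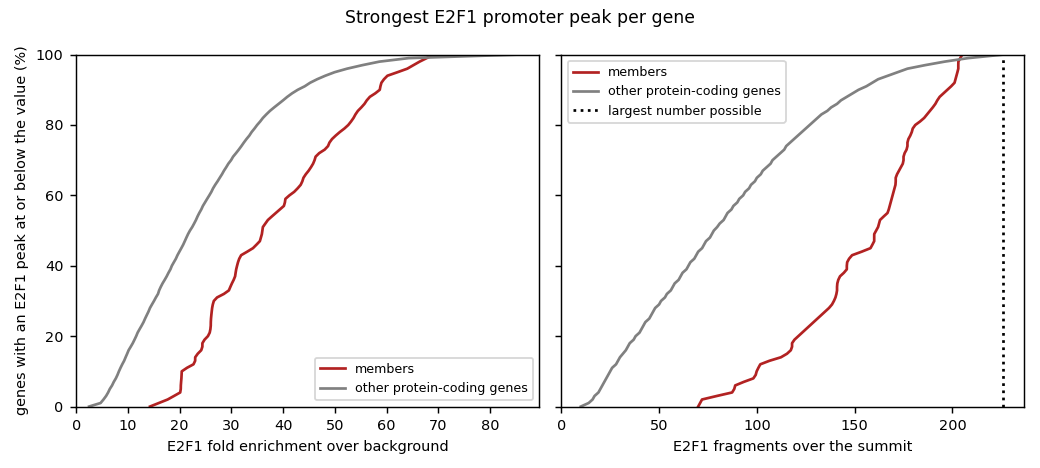
Cumulative distributions of the strongest E2F1 promoter peak per gene, as fold enrichment (left) and as fragments over the summit (right), for the 50 members (red) and the 12271 other protein-coding genes with a peak (grey). The y axis gives the percentage of genes at or below the value, and the dotted line marks the largest possible number of fragments, 226. The red curve lies to the right in both panels and by more in fragments (medians 161 and 78).

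By role, the chromosomal passenger complex, which corrects faulty kinetochore attachments, had the highest median E2F1 enrichment, 59.3 over 4 genes. In fragments its median of 167.5 was close to those of the motors (175), condensin and topoisomerase (171.5), the checkpoint (168.5) and the kinetochore (168), and its median background, 0.642, was lower than theirs (1.14 to 2.0). Its scaffold INCENP had 58.6 and its kinase AURKB 40.5 (35.1 to 46.4, from 202 fragments). AURKB therefore had more fragments than the other 3 subunits but stood over a background of 2.0, where theirs was below 1. The 7 motors and spindle proteins followed with a median of 42.3, from PRC1, the bundler of the central spindle, at 26.3 to KIF23 at 58.9. Between them lay the kinesins KIF11 (35.9), KIF2C (38.7), KIF20A (42.3) and KIF4A (49.1) and the spindle protein HMMR (45.1).

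The 2 transcription factors of the set are themselves activators of G2/M genes. FOXM1 had an E2F1 enrichment of 54.2 (45.7 to 63.8, from 141 fragments), and no MYC or Fra-1 peak. MYBL2, which encodes B-MYB, had 29.4 (23.1 to 36.97) and the fewest fragments of all members, 70, over a background of 0.452. Condensin, which compacts mitotic chromosomes, and topoisomerase II had a median of 41.0 over 6 genes. Within this role the non-SMC subunits NCAPH (55.6), NCAPG (52.4) and NCAPD2 (45.9) stood above the SMC subunits SMC2 (36.1) and SMC4 (24.4), and TOP2A had 24.4 although 203 fragments covered its summit. The fragments did not separate the subunits in this way, from 134 at NCAPH and 162 at SMC4 to 180 at SMC2 and 197 at NCAPG. The value of NCAPD2 came from a summit 3 bp from an annotated TSS but 749 bp upstream of its canonical one. Another peak of NCAPD2, 35 bp upstream of the canonical TSS, had 28.1 (24.3 to 32.4, from 187 fragments), below SMC2.

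The 11 centromere and kinetochore genes had a median of 35.5 and a wide spread. The inner kinetochore subunits CENPM (50.6), CENPK (40.3), CENPN (35.5) and CENPH (26.2) differed about as much as the 4 genes of the NDC80 complex, SPC25 (46.4), NUF2 (43.5), SPC24 (37.1) and NDC80 (20.2). The centromeric histone CENPA had 30.9, and the kinetochore motor CENPE had 23.002 and its partner CENPF 22.97. Subunits of 1 complex thus did not share 1 level of enrichment. The interval of NDC80 (17.3 to 23.5) did not reach those of its 3 partners, the lowest of which begins at 32.0. These intervals leave out the counting error of the background. In fragments the 4 genes of the NDC80 complex were close together, with 168 at NDC80, 171 at NUF2, 185 at SPC24 and 191 at SPC25, and NDC80 stood over the highest background of them, 4.0.

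The genes of the spindle checkpoint, the pathway that holds back anaphase, had a median of 32.9. CDC20 and MAD2L1 (56.5), the direct pair of the checkpoint, stood above BUB1B (34.1), BUB1 (31.7), the kinase TTK (30.7) and BUB3. In fragments MAD2L1 (188) was again above these genes, but CDC20 (167) lay below BUB3 (177) and BUB1B (170). BUB1 had 158 fragments and TTK 89. The 10 kinases, phosphatases and cyclins of mitotic entry had a median of 28.4 and divided within families. CDC25A (63.9) and CDC25C (53.5) stood above CDC25B (26.7), and the B-type cyclin CCNB2 (48.5) above CCNB1 (25.7). In each case the intervals did not overlap, but they leave out the counting error of the background. For the cyclins the order was the reverse in fragments, with 126 at CCNB2 over a background of 0.568 and 171 at CCNB1 over 3.0. By the strongest peaks, CDC25B was the lowest of its family on both scales, with 88 fragments. The value of CDC25C, however, came from a summit 6495 bp upstream of its canonical TSS. The peak of CDC25C near that TSS had 17.0 from 84 fragments, below CDC25B on both scales. The remaining members of this role were the polo-like kinases PLK4 (31.2) and PLK1 (29.99), the AURKA activator TPX2 (26.0), NEK2 and AURKA.

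The cytokinesis genes were the scaffold ANLN (43.99) and the RhoA exchange factor ECT2 (26.0). Both had 146 fragments, over a background of 1.0 at ANLN and 2.38 at ECT2. Securin (PTTG1, the inhibitor of separase) and separase gave the lowest role median of enrichment, 17.3, with 20.4 at PTTG1. Their median background, 3.31, was the highest of the roles. Their median of 120 fragments lay above the 105.5 of the transcription factors. The 2 lists of related genes described beside the set had similar levels. Of 76 other mitosis genes, 75 had an E2F1 peak with a median enrichment of 33.8, and of 54 DNA replication genes, the group for which E2F factors are best known, 54 had one with a median of 41.8.

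The position of the E2F1 summits relative to the TSS was examined next. The median distance from the strongest summit to the nearest TSS of the gene was 20.5 bp for the members and 91 bp for the other genes, and 42 members (84.0%) lay within 100 bp, beside 52.0%. The related lists were similar to the members, with 27 bp (74.7% within 100 bp) for the other mitosis genes and 30.5 bp (77.8%) for the DNA replication genes. In relation to the canonical transcript, 27 member summits lay upstream of the start, 20 in a noncoding part of an exon, 2 in an intron and 1 in a coding exon. The members had more annotated TSS than the other genes (median 7 and 5), and with 1 canonical TSS per gene the median distances were 34 bp and 170 bp. Measured from the midpoint of the peak in place of its summit, they were 101.75 bp and 114.5 bp, so the nearness to the TSS is a property of the summits.

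The 8 members with a summit farther than 100 bp from every TSS lay upstream in 6 cases: AURKA (344 bp), SMC2 (324 bp), PRC1 (237 bp), CDC25B (208 bp), CENPA (207 bp) and BUB1 (204 bp). In NCAPH it lay 326 bp and in CENPM 190 bp downstream of the nearest TSS, both in intron 1. CDC25C was a special case. Its strongest summit lay 26 bp from an annotated TSS but 6495 bp upstream of the canonical one, and a weaker peak of 17.0 lay 82 bp downstream of the latter. In all, 28 members had more than 1 E2F1 peak, with 100 peaks over the set and up to 6 at CDC25B. Other genes had up to 16, and the share of them with more than 1 was not counted.

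**Figure D3:**
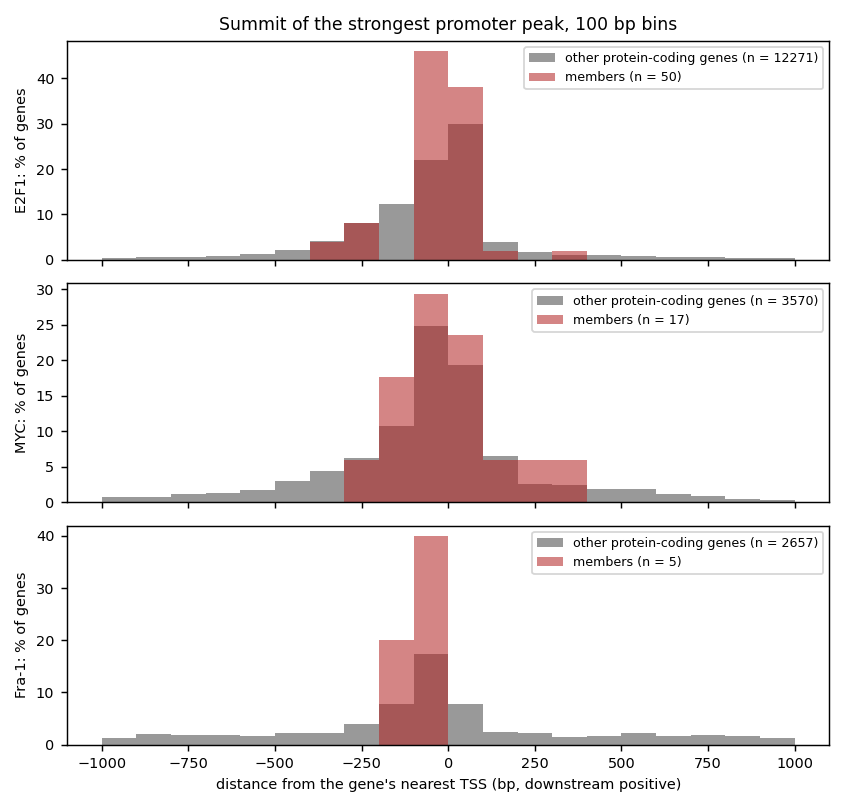
Distance of the strongest summit from the nearest TSS of the gene (x axis, 100 bp bins, downstream positive) for E2F1, MYC and Fra-1, as a percentage of the genes with a peak (y axis), for the members (red) and the other protein-coding genes (grey, darker where both overlap). Of the member E2F1 summits, 42 of 50 fall in the central 2 bins, and summits beyond 1000 bp, among them 2 of the 5 Fra-1 summits and the MYC summit of CDCA8, lie outside the range drawn.

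A peak at a shared promoter cannot be given to 1 gene. Shared peaks and divergent neighbours were counted for the members only, so no share of the other genes stands beside them. Of the members, 16 shared their strongest E2F1 peak with the window of another protein-coding gene, and 11 had a divergent neighbour starting within 1 kb. These were AURKA with CSTF1, CENPK with PPWD1, CENPN with CMC2, FOXM1 with RHNO1, HMMR with NUDCD2, KIF20A with BRD8, KIF4A with PDZD11, NCAPD2 with MRPL51, NCAPG with DCAF16, NDC80 with METTL4 and SMC4 with IFT80.

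The DNA sequence was then searched from 250 bp upstream to 50 bp downstream of the canonical TSS, on both strands. A CHR was present in 38 of the 50 member promoters (76.0%), beside 12.7% of the other protein-coding genes, a 5.96-fold difference in share. The 76 other mitosis genes had it in 64.5% and the 54 DNA replication genes in 7.41%. In the members it lay mostly close to the TSS. The CHR nearest the TSS had a median position of 18 bp upstream, and in 32 of the 38 promoters it lay within 50 bp of the TSS. Taking the nearest site favours short distances. Positions of the CHR were not measured in other promoters, so this nearness is not shown to be particular to the set. With its letters reversed (AAGTTT or AAGCTT), a control of the same base composition, the motif was in 16.0% of member promoters and 14.4% of the others.

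CCAAT, the box bound by NF-Y, was in 36 member promoters (72.0%), beside 35.8% of the other genes, 68.4% of the other mitosis genes and 59.3% of the DNA replication genes. Reversed (TAACC) it was in 28.0% of the members and 19.8% of the others. A CHR and a CCAAT box occurred together in 28 members (56.0%), beside 5.31% of the other genes. The CDE/CHR pair, which is counted within the CHR as well, was found in AURKB, BUB1, CDC25C, CENPF and NUF2 (10.0%), beside 0.175%. Of the 12 members without a CHR in the window, CDC25A and CENPH had an E2F motif.

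The E2F motif was in 3 member promoters (6.0%), CDC25A, CENPA and CENPH, beside 4.33% of the other genes, 15.8% of the other mitosis genes and 42.6% of the DNA replication genes. With its letters reversed it was in 8.0% of the members and 3.48% of the other genes, so that the share in the members is no higher than that of the reversed letters. An E-box was in 9 members (18.0%), beside 8.71% of the other genes, namely ANLN, BUB3, CCNB1, CENPE, CENPF, CENPM, FOXM1, MYBL2 and PLK1. In the window from 150 bp upstream to 150 bp downstream it was in 4 members (8.0%), beside 7.70%, so that the excess depends on the window. No member promoter held an AP-1 motif, beside 3.59% of the other genes. These are matches to fixed letters, and a promoter without one may hold a weaker site of the same factor.

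**Figure D4:**
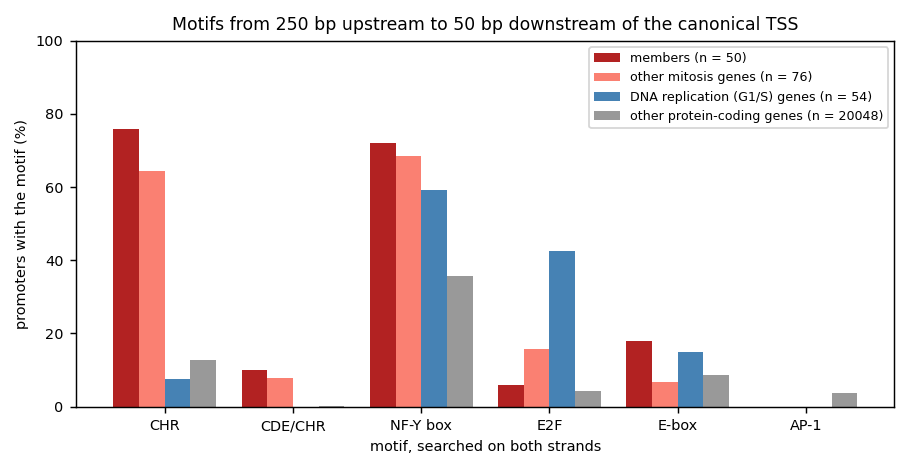
Percentage of promoters (y axis) with each motif (x axis), from 250 bp upstream to 50 bp downstream of the canonical TSS, in the 50 members, 76 other mitosis genes, 54 DNA replication genes and 20048 other protein-coding genes. CHR stands at 76.0% of members and 7.41% of DNA replication genes, and the E2F motif at 6.0% and 42.6%.

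The motifs were also counted under the E2F1 summits themselves. Within 50 bp of the strongest summit a CHR was found at 20 members (40.0%), beside 3.65% of the 10423 distinct summits of the other genes. CCAAT was found at 22 of the 50, beside 10.3%, and the E2F motif at 3 (6.0%), beside 3.22%. In the 38 promoters with a CHR, the median distance from the element to the E2F1 summit was 41.5 bp, which was not measured for the other genes.

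E2F1 enrichment was also compared between promoters with and without a CHR. The median was 36.0 in the 38 members with a CHR and 33.2 in the 12 without, and among the other genes with a peak it was 24.1 and 21.8. Among all other protein-coding genes, those with a CHR had an E2F1 peak less often (48.8%) than those without (63.0%). The 3 members with an E2F motif had enrichments of 63.9 (CDC25A), 30.9 (CENPA) and 26.2 (CENPH), on either side of the median of the set. The promoters of the members had a median GC content of 60.8%, beside 63.7%.

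MYC peaks were found at 17 members, and 12 of them lay below the median MYC enrichment of the other genes. The 17 members with a MYC peak had a median enrichment of 6.63, beside 7.22 for the other genes with one, and between 15 and 45 fragments at the summit. Only BIRC5 and AURKB lay in the top 25% of the other genes, and 7 members lay in the bottom 25%. All 20 MYC peaks at the members overlapped an E2F1 peak, with a median of 108 bp between the summits of both factors when the strongest E2F1 summit of the gene was taken. Having both factors is not particular to the members. Of the 3570 other genes with a MYC peak, 3561 also had an E2F1 peak in their windows, whether or not the peaks overlapped.

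**Figure D5:**
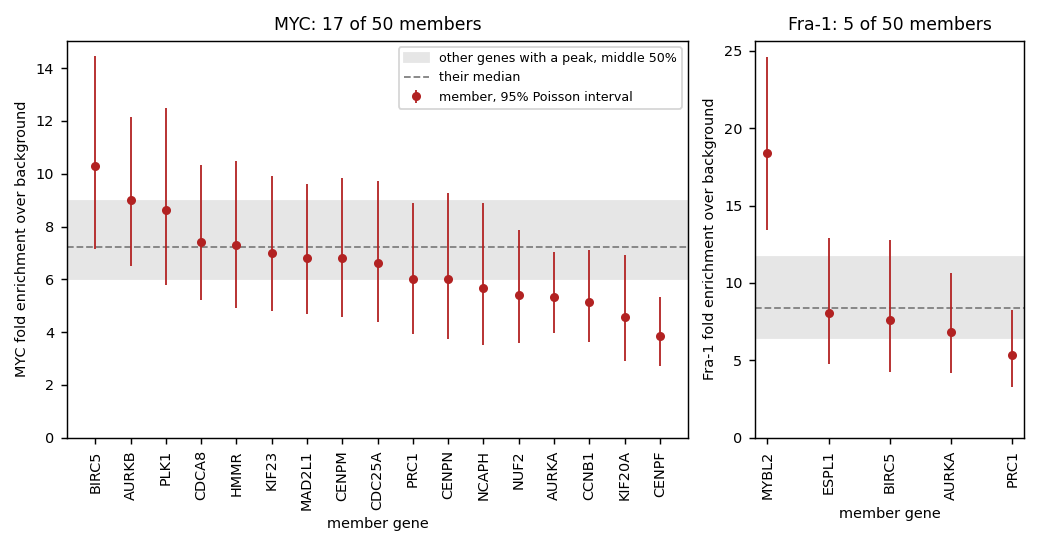
MYC (left) and Fra-1 (right) fold enrichment (y axis) at the strongest promoter peak of the members that had one (x axis). Bars are 95% Poisson intervals in 1 library, and the grey band and dashed line give the middle 50% and the median of the other protein-coding genes with a peak. Most MYC intervals cross the dashed line (7.22), and MYBL2, at 18.4, is the only member whose Fra-1 interval lies above it.

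BIRC5 had the highest MYC enrichment, 10.3 (7.13 to 14.5, from 29 fragments), followed by AURKB with 8.99 (6.51 to 12.2) and PLK1 with 8.64 (5.80 to 12.5). CDCA8 had 7.42 at a summit 1927 bp upstream of its TSS, with weaker MYC peaks of 5.67 and 5.88 closer to it. The next were HMMR (7.29), KIF23 (6.98), MAD2L1 (6.81), CENPM (6.79), CDC25A (6.63) and PRC1 (6.02). Their intervals overlapped one another, so that no order among these 10 is resolved. Of the 4 passenger complex genes, 3 thus had a MYC peak, while the nearest MYC peak of INCENP lay 233148 bp from its TSS.

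The other 7 members with a MYC peak were CENPN, NCAPH, NUF2, AURKA, CCNB1, KIF20A and CENPF, with values from 5.996 down to 3.86. An E-box lay within 50 bp of the strongest MYC summit in CENPF and CENPM alone (11.8% of 17), beside 18.3% of the summits of other genes. CENPF, with the E-box, had the lowest MYC enrichment of the set (2.72 to 5.34). Of the 9 members with an E-box in the promoter, 4 had a MYC peak.

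By the median, the members with a MYC peak had stronger E2F1 peaks. The median E2F1 enrichment was 43.5 in the 17 members with MYC and 31.7 in the 33 without, and in the other genes with E2F1 it was 32.1 and 18.4. Set beside only those other genes that had an E2F1 peak, of which 29.0% had a MYC peak, the 34.0% of the members lies close to the background. Among the related lists, 42.1% of the other mitosis genes and 42.6% of the DNA replication genes had a MYC peak. The peak lists share the input, and both factors were measured in 1 library each.

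Fra-1 peaks were found at MYBL2, ESPL1, BIRC5, AURKA and PRC1. The 10.0% lies below the 13.3% of the other genes and below the 20.2% of those with an E2F1 peak, but with 1 canonical TSS per gene it was 8.0% beside 7.23%, so that no direction is given. The median distance from the canonical TSS to the nearest Fra-1 peak anywhere was 63523.5 bp for the members and 60072 bp for the other genes, whereas for MYC it was 47566 bp and 129930 bp.

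MYBL2 had by far the strongest Fra-1 peak, 18.4 (13.4 to 24.6, from 43 fragments), at chr20:42298095-42298242 in intron 1, 2396 bp downstream of its TSS. It is the only one of the 5 with an AP-1 motif within 50 bp of the summit, beside 51.0% of the 2433 Fra-1 summits of other genes. The third E2F1 peak of MYBL2 (16.4, 51 fragments) overlapped it, with a summit 17 bp away, and MYC had no peak there. The promoter peak of E2F1 in this gene was a separate one at the TSS.

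ESPL1 had a Fra-1 enrichment of 8.07 (15 fragments) in coding exon 23 of its canonical transcript, inside the window of an internal TSS and 21818 bp from the canonical one. The 3 other Fra-1 peaks lay at the promoter proper. BIRC5 had 7.60 (4.26 to 12.8, from 12 fragments) at 14 bp upstream of a TSS, AURKA 6.80 (4.15 to 10.6, from 17 fragments) at 191 bp upstream and PRC1 5.32 (3.29 to 8.22, from 18 fragments) at 69 bp upstream. All 5 overlapped an E2F1 peak, and 4 of them fell below the median Fra-1 enrichment of the other genes, 8.38. Of the 2657 other genes with a Fra-1 peak, 2475 also had an E2F1 peak in their windows, whether or not the peaks overlapped.

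The members with all 3 factors were AURKA, BIRC5 and PRC1. In BIRC5 the 3 summits lay at chr17:76210320 for Fra-1, chr17:76210360 for E2F1 and chr17:76210383 for MYC, in a stretch that also holds the CHR shown above, and the 3 peaks overlapped. In AURKA they overlapped as well, with summits from 191 to 344 bp upstream of the nearest TSS. In PRC1 both the MYC and the Fra-1 peak overlapped the E2F1 peak, but 6 bp separated them from each other.

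The members AURKB, BIRC5, CENPM and FOXM1 also belong to the Fra-1-dependent expression signature of the study. BIRC5 alone of the 4 had a Fra-1 peak in its windows. The nearest Fra-1 peak lay 37317 bp from the TSS of AURKB, 89474 bp from that of CENPM and 236306 bp from that of FOXM1. E2F1 peaked at all 4, with 66.3 at BIRC5, 54.2 at FOXM1, 50.6 at CENPM and 40.5 at AURKB, and MYC at all but FOXM1.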

How the data were processed

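ChIP-seq of Fra-1, MYC and E2F1 in MDA-MB-231 LM2 cells was analysed from the deposited peak lists, 1 library per factor. Per the study's methods, the submitters' processing notes and the file headers, the authors trimmed reads (Trimmomatic 0.27) and aligned them to hg19 (Bowtie 0.12.5). The study's methods also state that duplicate reads were removed with Picard-tools. Peaks were called against the shared input with MACS2 2.0.10, q-value threshold 0.01. The deposited columns used were the summit pileup (a signal, scaled down to the depth of the input), the fold enrichment (a ratio of pileup to local background, 1 added to each), and the −log10 p-value and −log10 q-value that the authors' caller wrote. A deposited list in BED format repeats peaks and was not used.

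From these columns the whole number of unscaled fragments at each summit and the local background were recovered. They returned the deposited −log10 p within 0.001 for 100% of peaks. Exact 95% Poisson intervals of the fragments cover counting error of the ChIP library only, not the input, library preparation or cultures. Tags after filtering were 18056168 (E2F1), 23853621 (MYC), 12931227 (Fra-1) and 10758036 (input). The number of peaks did not follow the number of tags, since MYC had the most tags and the fewest peaks.

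Genes and TSS came from GENCODE 44 lifted to GRCh37, and 51 peaks on other sequences than chromosomes 1 to 22 and X were left out. Peaks were assigned by windows, the strongest peak per gene being kept. Motifs were exact words on both strands of the GRCh37 sequence. Python 3.11.15, pandas 2.3.3, scipy 1.17.1 and pysam 0.24.0 were used. The recovery of fragments, their intervals, the assignment to windows, the signed distances and the motif search were tested on simulated data. The other steps were not. The members, comparison lists and motifs were chosen with earlier results of these data known. With 1 library per factor no test was run, and members are given beside all other protein-coding genes. All members may be named by role. Described in full were the 5 highest and 5 lowest for E2F1, the 10 highest for MYC, every member with Fra-1 or all 3 factors, and 4 members of the study's Fra-1-dependent signature. The sequences, neighbouring genes and other MYC members were picked after their values were seen. Printed windows were trimmed so that at most 30 bases lie in an annotated UTR.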

Additional observations from a re-analysis of the deposited data

How the results depend on the processing

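No paired analysis was possible because each factor has 1 library and no test was run. Of 64 values listed under another setting, 55 stayed within a set range. The range was 1.5-fold for a count or a distance and a binomial interval for a share. For a median enrichment it was the Poisson interval of the 1 member nearest the median, which is not an interval of the median itself. Some of the 55 values could not move. Another background leaves the count of members as it is and changes only the share beside it. The MYC values with equal lists are unchanged because the MYC list is the shortest. The 55 therefore overstates how much was put to the test. With only peaks of −log10 q of at least 5, MYC was found at 9 members, beside 12.7% of the other genes, since weaker peaks drop out. With each list reduced to as many peaks as the shortest, Fra-1 was found at 1 member, MYBL2, so that its median enrichment became 18.4, and 0 members had all 3 factors. With windows of 1 kb either side of each TSS, Fra-1 was found at 3 members. The median distance of the E2F1 summit from the TSS was 101.75 bp by the peak midpoint (other genes 114.5 bp) and 34 bp with 1 canonical TSS per gene (other genes 170 bp). A CHR lay within 100 bp of the E2F1 summit at 54.0% of the members, beside 7.14% of the other summits.

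The E2F1 count was 50 under each of these settings except the equal lists (45). Against all annotated genes outside the set, which include noncoding genes, the backgrounds were 28.9% for E2F1, 7.69% for MYC and 7.14% for Fra-1, and the share of members with Fra-1 then lay above the background. The backgrounds limited to genes with an E2F1 peak were added after seeing the data, as was the promoter window of 150 bp either side for the other motifs, in which the E-box share of the members fell from 18.0% to 8.0%, beside 7.70%. Without replicate libraries, intervals cover counting error only, and an effect of the antibody on the number of peaks was not tested. Depth does not order the lists, since MYC had the most tags and the fewest peaks.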
